A study of Mus musculus with 1814 samples.

Results

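The genes described here encode the subunits of microtubules and 1 protein that takes microtubules apart: the α-tubulin genes Tuba1a, Tuba1b, Tuba1c and Tuba4a, the β-tubulin genes Tubb2a, Tubb2b, Tubb4b, Tubb5 and Tubb6, and Stmn1, the gene of stathmin. They are 10 of the 25125 genes in the authors' time-course table, and 10 of the 15177 genes in their table of genotypes. The set was named by symbol because Tuba1a was higher at late times in light zone cells. The light zone time course therefore chose the members, and its values are given as a description with no test.

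The study asked how cyclin D3 governs cell division in the dark zone of the mouse germinal center, the lymph node and spleen structure in which B cells divide and are selected. Single germinal center B cells were sorted into plates with their fluorescence recorded, and each cell was sequenced by SmartSeq2, which reads whole transcripts and carries no molecular identifiers. In experiments 1, 3 and 4 the labels gave a Dec status (+ or -), a time in hours and a zone, and the genotype was given as not applicable. Experiment 1 held Dec+ light zone cells and Dec- light zone cells at 12 h and 42 Dec+ dark zone cells at 30 h. The labels give 30 h for these dark zone cells, and the authors' own column of groups names them 36 h. Experiment 1 also had wells marked PB, labelled Dec+, dark zone and 30 h, which were left out. Experiments 3 and 4 held Dec+ cells of both zones at 12, 30, 46 and 60 h. In experiment 5 no time was given, and cells of both zones had the genotype WT, KO or TA, on plates that carry the name Ccnd3, the gene of cyclin D3. The labels do not say what KO and TA alter, what Dec and PB stand for, or the animals' strain, age or number.

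Reads were summed over the cells of 1 experiment, time and zone, and these sums, not the cells, were compared. Each value below is in reads scaled to the total assigned to genes (CPM) of such a sum, and a p-value measures only the spread between sums, which may be technical because no label names an animal. Over 1328 cells the median depth was 222872 reads, the lowest was 1300 and the highest was 5828100. Marker genes of B cells summed to between 5933 and 8954 CPM in the time-course sums, T cell markers to between 114.5 and 292.8 CPM, and myeloid markers to at most 1.3 CPM with at least 8 of their 11 genes at 0.

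Microtubules are hollow polymers of dimers, each made of an α-tubulin and a β-tubulin. In a dividing cell they are rebuilt into the spindle that separates the chromosomes. Mammals carry several genes for each subunit, whose proteins differ mainly near their carboxyl end, and Tuba1b and Tubb5 are the forms used widely across proliferating cells, while Tuba1a, Tubb2a and Tubb2b are best known from the nervous system. Stathmin binds free dimers and promotes the disassembly of microtubules, and phosphorylation at mitosis switches it off. Germinal center B cells divide in the dark zone and are selected by T cells in the light zone, so proliferation genes are commonly read together with these zones.

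The members are easily confused at the level of reads, since their transcripts share long stretches (mm10, GENCODE M21). Over the whole coding sequence Tuba1a was 98.3% identical to Tuba1b and 97.2% identical to Tuba1c. Of all stretches of 50 bases in its transcript, Tuba1a shared 72.9% with another gene, Tuba1b 73.8% and Tuba1c 60.99%, against 1.11% for Tuba4a. Among the β-tubulins the shared part was 49.6% for Tubb2a, 39.3% for Tubb2b and 50.9% for Tubb4b, but 0.115% for Tubb5 and 0 for Tubb6. Stmn1 shared 36.5% of its stretches, mostly with Gm11223. The levels of Tuba1a, Tuba1b and Tuba1c are therefore uncertain relative to each other, because the estimated counts divide shared reads between genes. Over the 4 experiments, annotated copies of Tuba1a outside the family took 1.29 to 2.80% of the reads given to Tuba1a itself. The values were highest for the copies of Tuba1c, at 3.66 to 6.93%. Those of Tuba1b took 0.31 to 0.65% and those of Stmn1 0.38 to 1.18%.

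Tuba1a (mm10 chr15:98949837-98953703), Tuba1b (chr15:98931425-98934565) and Tuba1c (chr15:99029891-99038110) lie next to each other on chromosome 15, the first pair on the minus strand and Tuba1c on the plus strand. Tuba4a lies at chr1:75214228-75219865, Tubb4b at chr2:25222160-25224702, Tubb5 at chr17:35833921-35838306, and Tubb2a and Tubb2b neighbour each other at chr13:34074274-34078007 and chr13:34126748-34130466, all on the minus strand. Stmn1 lies at chr4:134468320-134473843 on the plus strand. The stretch before the transcription start is shown for Tubb4b and Tubb5, the members that differed between G2M and S cells of the cell cycle. Sequences are from RefSeq (GRCm38.p6), on the gene's own strand. For Tubb5 only the bases outside the gene as GENCODE draws it are printed, and motifs were counted over all 250 bases. Capitals mark CCAAT, the core of the site of the factor NF-Y, and TTTGAA, the CHR element of cell cycle genes, each searched on both strands.
Tubb4b, chr2:25224703-25224952, minus strand: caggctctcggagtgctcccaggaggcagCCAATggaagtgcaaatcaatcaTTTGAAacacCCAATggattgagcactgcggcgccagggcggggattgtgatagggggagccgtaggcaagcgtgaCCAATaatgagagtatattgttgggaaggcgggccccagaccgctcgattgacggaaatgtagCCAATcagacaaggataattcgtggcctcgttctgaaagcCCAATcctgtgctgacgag
Tubb5, chr17:35838307-35838551, minus strand: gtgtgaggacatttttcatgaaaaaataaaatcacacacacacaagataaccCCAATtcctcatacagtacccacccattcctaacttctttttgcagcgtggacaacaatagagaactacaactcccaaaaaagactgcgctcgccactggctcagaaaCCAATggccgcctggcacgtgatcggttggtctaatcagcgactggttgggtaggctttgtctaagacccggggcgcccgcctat
The Tubb4b stretch held 5 CCAAT motifs and 1 TTTGAA, and the Tubb5 stretch held 2 CCAAT and no TTTGAA. Of 32851 promoters of 250 bases, 33.9% held at least 1 CCAAT, 10.1% at least 2 and 0.213% at least 5, and 15.99% held TTTGAA. No stretch was counted for Tubb2b, Tubb6 or Stmn1. Tuba1a and Tuba1c held 1 CCAAT each, and Tuba1b, Tuba4a and Tubb2a held none. These are matches of letters, and no binding was measured.

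Per length of transcript, Tuba1b was the most abundant member in dark zone cells at 1620 ± 437 CPM per kb (SD, n = 9 sums). Tubb5 followed at 1146 ± 245.9, then Tubb4b at 518 ± 145.3, Stmn1 at 354 ± 81.8, Tuba1a at 270.7 ± 63.04 and Tuba1c at 131.7 ± 28.4 CPM per kb. Within each sum, Tubb5 exceeded Tubb4b (log2 ratio 1.17 ± 0.24, SD), Tubb4b exceeded Stmn1 (0.54 ± 0.29) and Tuba1a exceeded Tuba1c (1.04 ± 0.42) in 9 of 9 sums. Tuba1b exceeded Tubb5 in 8 of 9 (0.48 ± 0.29), and Stmn1 and Tuba1a were the least separated neighbours, with Stmn1 higher in 7 of 9 and a ratio within its spread (0.38 ± 0.39). Tubb2a (12.7 ± 25.5) and Tuba4a (12.1 ± 5.26) were far lower. Tubb2b reached 0.907 ± 1.88 and Tubb6 0.114 ± 0.321 CPM per kb, and both were at 0 in most sums. For these rare members the authors' tables differ, since the combined table lists Tubb6 in experiment 3 and Tubb2b in experiment 4 at 0 where the tables per plate hold reads. Light zone cells gave the same leading 4 genes (n = 8 sums): Tuba1b 1684 ± 505, Tubb5 1154 ± 376, Tubb4b 443 ± 136.5 and Stmn1 252.8 ± 104.4 CPM per kb.

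The differences among the members that passed the test lay between phases of the cell cycle within the dark zone. The authors' tables give each cell a Phase (G1, S or G2M), and dark zone cells were summed by experiment, time and phase (8 G1, 9 S and 8 G2M sums of at least 10 cells). Of the 8 members that could be fitted, 6 rose from G1 to G2M: Tuba1a, Tuba1b, Tuba1c, Tubb4b, Tubb5 and Stmn1. The background was 4.46% of the 9211 genes called higher, 1.25% called lower and 5.71% called in either direction. The same 6 members rose from G1 to S, where 4.9% of genes were called higher, 1.76% lower and 6.66% in either direction. Without experiment 3 the share called fell to 1.27% for G2M against G1 and to 1.24% for S against G1, and without experiment 4 to 1.85% and 2.20%. The medians over the fitted members were 2.91 (log2) for G2M against G1, beside 0.19 over all genes.

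Tuba1b, the leading α-tubulin gene, was at 128.5 to 704 CPM in G1 sums, 2061 to 3961 in S sums and 3249 to 5337 in G2M sums. No G1 sum reached the level of any S or G2M sum. How many of all genes had phase sums that separate in this way was not counted, here or for the members below. In the G2M sum of experiment 1, 1 cell held 62.8% of the Tuba1b reads, and without it the sum was 2645 CPM. G2M cells exceeded G1 cells by 3.15 ± 0.24 (log2, SE, adjusted p = 3.36e-08), and S cells exceeded G1 cells by 2.59 ± 0.23 (adjusted p = 2.87e-07). Tuba1c, its neighbour on the chromosome, was at 0.445 to 136.4 CPM in G1, 45.8 to 253.6 in S and 409 to 544 in G2M. Its G2M sums lay above all G1 and all S sums, with a fitted difference of 3.44 ± 0.57 from G1 (adjusted p = 0.000412), while the difference of 1.51 ± 0.49 between G2M and S did not pass (adjusted p = 0.352). Tuba1a moved less, from 50.02 to 498 CPM in G1 to 349 to 784 in S and 444 to 965 in G2M. Its groups overlapped, although G2M exceeded G1 in 7 of 7 harvests with both phases, by 1.63 ± 0.26 (adjusted p = 0.000292), and S exceeded G1 by 1.28 ± 0.24 (adjusted p = 0.00181). Tuba4a was low throughout, at 24.3 ± 45.1 CPM in G1 (n = 8), 38.1 ± 20.1 in S (n = 9) and 39.9 ± 8.32 in G2M (n = 8), and did not pass (adjusted p = 0.499 for G2M against G1), although it passed with every cell weighted equally in limma (adjusted p = 0.0296).

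**Figure D1:**
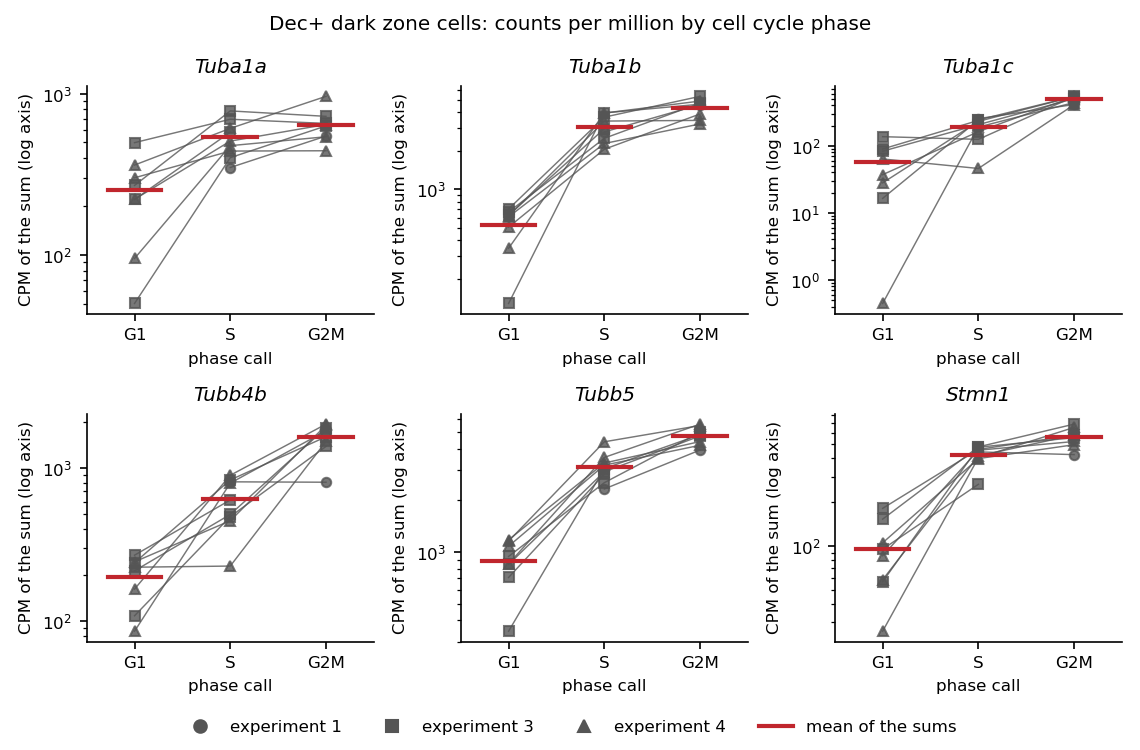
Level (CPM, log axis) of 6 members in dark zone sums, split by the authors' Phase; each point is the sum over the cells of 1 experiment, time and phase, lines join sums of 1 harvest, and red bars give the mean. The G1 points of Tuba1b, Tubb5 and Stmn1 lie below all of their S and G2M points, whereas those of Tuba1a overlap.

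Tubb5, the leading β-tubulin gene, was at 345 to 1177 CPM in G1, 2329 to 4389 in S and 3930 to 5566 in G2M. Its G1 sums did not overlap with the others. In the lowest G2M sum, that of experiment 1, 1 cell held 56.3% of the Tubb5 reads, and without it the sum was 2648 CPM. Tubb5 rose by 2.54 ± 0.13 from G1 to G2M (log2, adjusted p = 9.02e-11) and by 1.89 ± 0.13 from G1 to S (adjusted p = 8.32e-09). Tubb4b was at 85.5 to 268.4 CPM in G1, 227.9 to 893 in S and 805 to 1929 in G2M, and it rose by 3.13 ± 0.28 from G1 to G2M (adjusted p = 2.64e-07) and by 1.70 ± 0.26 from G1 to S (adjusted p = 0.000254). Tubb4b and Tubb5 were also the only members called between G2M and S, a comparison in which 0.337% of genes were called, 0.261% higher and 0.076% lower. Tubb4b was higher in G2M by 1.44 ± 0.25 (adjusted p = 0.00836) and Tubb5 by 0.65 ± 0.12 (adjusted p = 0.0149). Tubb4b belongs to the G2M gene list shipped with Seurat, the package in the submitters' processing notes, so if that list made the phase calls its difference is part of the definition. Tubb2a averaged 3.45 CPM in G1, 4.91 in S and 37.4 in G2M, and its difference of 5.72 ± 2.41 from G1 to G2M did not pass in edgeR (adjusted p = 0.240) but was called by DESeq2. Of the Tubb2a reads in the dark zone sum of experiment 1, 95.8% came from 1 cell. Tubb2b and Tubb6 did not reach the level needed for the fit.

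Stmn1, the destabiliser, also rose from G1 to S and to G2M. It was at 25.9 to 181.4 CPM in G1, 265.7 to 481 in S and 425 to 690 in G2M, and no G1 sum reached the others. It rose by 2.69 ± 0.27 from G1 to G2M (adjusted p = 1.17e-06) and by 2.25 ± 0.26 from G1 to S (adjusted p = 9.77e-06), and G2M and S did not differ beyond the threshold (0.44 ± 0.24, adjusted p = 0.916). The median depth of a dark zone cell was 189806 reads in G1, 227628 in S and 203026 in G2M in experiment 3, and 240900, 308574 and 305642 in experiment 4. The calls of Tuba1b, Tubb5 and Stmn1 against G1 held in every alternative run, while those between G2M and S rested on experiments 3 and 4: without experiment 3 the adjusted p was 1.0 for Tubb4b and 0.661 for Tubb5, and without experiment 4 it was 0.172 and 0.272. Tuba1a was no longer called in G2M against G1 without experiment 4 (adjusted p = 0.0511), nor Tuba1c without experiment 3 (adjusted p = 0.0743), and in S against G1 the calls of Tuba1a, Tuba1c and Tubb4b were lost without experiment 3 (adjusted p = 0.115, 0.301 and 0.115), those of Tuba1a and Tuba1c also without experiment 4 (0.0835 and 0.138), and that of Tuba1c also without experiment 1 (0.0550). Between G2M and S, Tubb5 was also not called with every cell weighted equally in limma (adjusted p = 0.0543).

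Summed over the 4 α-tubulin genes, a level that does not depend on how reads were divided among them, G2M exceeded G1 by 2.86 ± 0.93 (log2, SD, n = 7 harvests, higher in 7 of 7) and S exceeded G1 by 2.30 ± 1.00 (SD, n = 8, higher in 8 of 8). The β-tubulins together gave 2.65 ± 0.53 and 1.87 ± 0.49. Between zones the same sums differed by -0.04 ± 0.34 (α) and -0.02 ± 0.39 (β).

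Within the family, Tuba1a made up a smaller share of the Tuba1 level per kb in S and G2M cells than in G1 cells. Its share of the summed Tuba1a, Tuba1b and Tuba1c level per kb was 29.7% in G1 (SD 10.2) and 12.1% in G2M (SD 3.89), lower in G2M in 7 of 7 harvests (exact sign-flip permutation test, two-sided, p = 0.0156, the smallest this design allows, and 0.0234 adjusted over 3 comparisons, the third between zones). Against S cells the values were 28.9% in G1 (SD 9.76) and 14.9% in S (SD 4.72), lower in S in 8 of 8 harvests (exact p = 0.00781, adjusted 0.0234). Between zones the share was 13.5% in the dark zone (SD 3.21) and 9.82% in the light zone (SD 4.63), given with no p because the light zone sums of Tuba1a chose the set. Giving each cell equal weight left 28.2% in G1 against 12.3% in G2M, lower in 6 of 7 harvests (exact p = 0.0313). This share was examined after the levels of the members had been seen, and it depends on how shared reads were divided among the 3 genes.

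Other genes of the microtubule pathway were counted in 8 lists (94 genes in all). Between G2M and G1 cells genes of the spindle were called higher with the members, beside 4.46% of all 9211 genes called higher. None that fold tubulin was called, which in lists this small is near the 5.71% of all genes called in either direction. Between G2M and G1, 4 of 9 fitted genes whose proteins shorten or sever microtubules were higher. Their largest differences were those of the kinesins Kif2c (0.0278 to 164.3 CPM), Kif18a (0.0639 to 101.7 CPM) and Kif18b (0.0234 to 51.9 CPM). Of the stabilisers and plus end proteins, 7 of 15 were higher, led by Dlgap5 (2.93 to 107.7 CPM), the spindle assembly factor Tpx2 (4.56 to 419 CPM) and Prc1, a bundler of the central spindle (4.35 to 352 CPM). Of the genes that nucleate microtubules, 4 of 17 were higher, led by Tubgcp2 of the γ-tubulin ring (11.1 to 61.5 CPM) and by Haus1 (22.3 to 69.6 CPM) and Haus5 (38.7 to 106.2 CPM) of the augmin complex. Of the other tubulins, 1 of 5 was higher, the γ-tubulin gene Tubg1, from 39.9 to 115.6 CPM (log2 1.85 ± 0.41, adjusted p = 0.00803). The Seurat G2M list holds Kif2c and 5 of the 7 called stabilisers (Ckap5, Tacc3, Tpx2, Nusap1 and Dlgap5), so the caution given for Tubb4b applies to them. Outside it were 2 called stabilisers (Prc1 and Mapre1), 3 of the 4 called genes that shorten or sever microtubules, and all 4 nucleation genes.

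By edgeR 0 of 7 tubulin folding cofactors, 0 of 8 subunits of the CCT chaperonin and 0 of 6 prefoldin subunits were called between G2M and G1, with 0, 0 and 2 genes at an unadjusted p under 0.05, and DESeq2 called 0 of each. Of the genes that modify tubulin or regulate its mRNA, 0 of 13 were called, with 1 at an unadjusted p under 0.05 and 1 called by DESeq2. Over all genes edgeR called 5.71% in either direction, so counts of 0 in such small lists do not set these genes apart. The genes with the highest mean CPM of each list, not scaled to length, were Tcp1 (0.28 ± 0.15, log2, adjusted p = 0.388) and Cct5 (0.02 ± 0.15) of the chaperonin, Tbcb (-0.25 ± 0.31) and Tbca (-0.29 ± 0.40) of the cofactors, Pfdn5 (-0.44 ± 0.18) and Vbp1 (0.62 ± 0.25) of prefoldin, and Ttc5 (-0.03 ± 0.70) and Sirt2 (0.12 ± 0.34) of the modifiers. The list medians were 2.22 (shortening and severing), 1.17 (stabilisers), 1.09 (nucleation) and 1.53 (other tubulins). They were 0.10, 0.17, 0.16 and 0.12 for cofactors, chaperonin, prefoldin and modification, beside 0.19 over all genes. Between S and G1 the calls were 4 of 9, 6 of 15, 5 of 17 and 1 of 5 higher, beside 4.9% of all genes. Pfdn5 fell by 0.61 ± 0.17 (log2, adjusted p = 0.0306), beside 1.76% of all genes called lower.

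**Figure D2:**
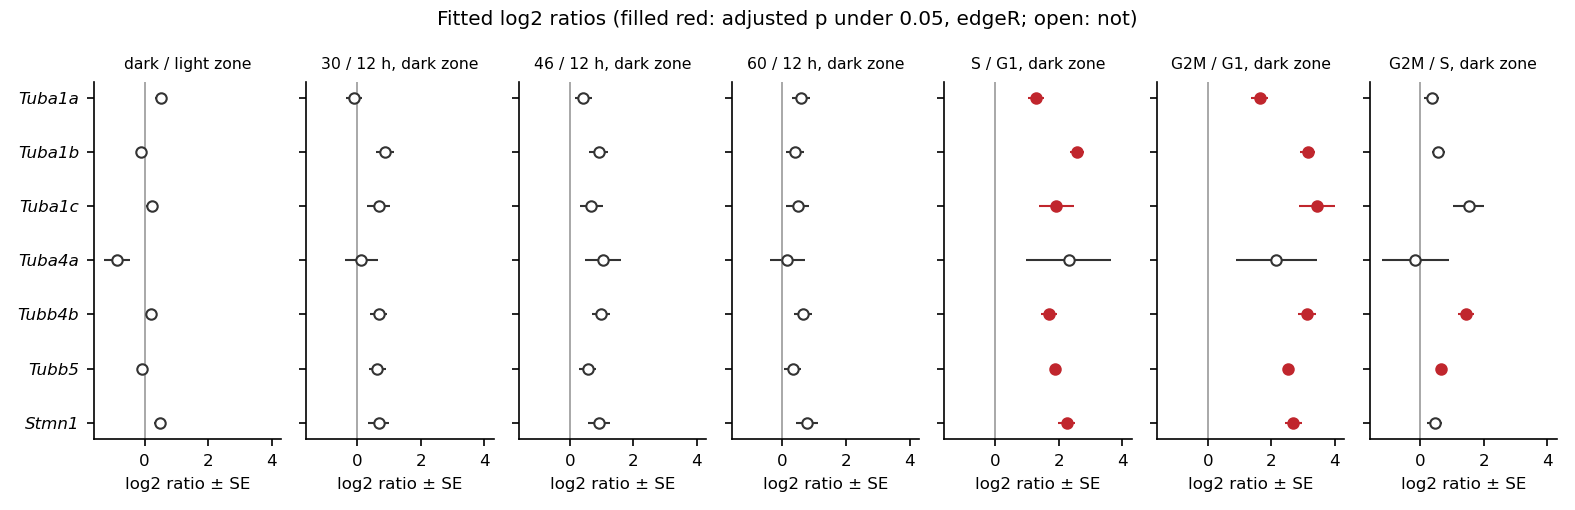
Fitted log2 differences of 7 members with their standard errors (lines) from edgeR, for the zones, the dark zone times against 12 h, and the phases within the dark zone; filled points had an adjusted p under 0.05. The filled points lie in the phase comparisons, with 6 members in each comparison against G1 and Tubb4b and Tubb5 between G2M and S.

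The fluorescence recorded at sorting gave a readout apart from the reads. The column named FUCCI, a reporter of cell cycle position whose colour the files do not name, had a median of 5896 in G2M and 96 in G1 dark zone cells of experiment 3, and of 1421 and 140.5 in experiment 4. Across cells of 1 harvest, Spearman's rho between FUCCI and the level was largest for Tubb5 (median 0.63 over 8 harvests, from 0.168 to 0.792) and Tuba1b (0.60, from 0.277 to 0.773). It was 0.44 for Stmn1, 0.42 for Tubb4b, 0.41 for Tuba1c and 0.20 for Tuba4a (7 harvests). Tuba1a had a median of 0.19 (from 0.0519 to 0.387), well under Tuba1b. These are descriptions with no p, since cells of a harvest share a library preparation and FUCCI itself ran with the reads of a cell (rho from 0.0531 to 0.431).

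**Figure D3:**
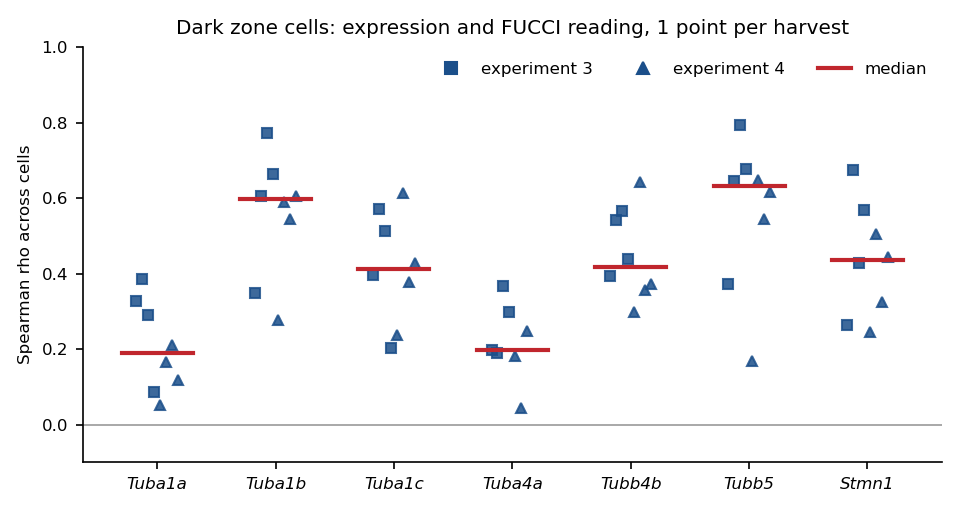
Spearman's rho between FUCCI intensity and the level of each member across the dark zone cells of a harvest (1 point per harvest of experiments 3 and 4, red bars give the median). Tubb5 and Tuba1b have the highest medians and Tuba1a the lowest.

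Over time in the dark zone no member passed the test. In edgeR's quasi-likelihood test 0 of 11662 genes (0%) were called at 30, 46 or 60 h against 12 h. At an unadjusted p under 0.05 there were 2.31, 4.37 and 1.68% of genes, with 3 members at each time, and DESeq2 called 0.780, 1.16 and 0.840% of genes with no member among them. Tuba1b was at 1741 and 1990 CPM at 12 h, at 3749, 2779 and 3662 at 30 h, at 3594 and 2984 at 46 h, and at 2860 and 2047 at 60 h. All later sums lay above both 12 h sums, with fitted differences of 0.89 ± 0.28, 0.91 ± 0.29 and 0.39 ± 0.29 (log2, adjusted p = 1.0 each), and 1 cell held 45.9% of the Tuba1b reads of the first 30 h sum. Tubb4b was at 513 and 591 CPM at 12 h, and the other sums ran from 607 to 1193. Stmn1 was at 184.3 and 325.7 CPM at 12 h and from 349 to 474 later, with fitted differences of 0.67 ± 0.33, 0.92 ± 0.34 and 0.77 ± 0.34. Tuba1c was at 210 and 157.9 CPM at 12 h and at 233.5 CPM or more later. Tubb5 did not keep this order, since 3094 CPM at 12 h in experiment 4 exceeded its 60 h value of 2834. How many of all genes keep such an order of so few sums was not counted, here or for Tuba1a below.

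Tuba1a in the dark zone was at 399 and 438 CPM at 12 h, at 458, 342 and 415 at 30 h, at 634 and 441 at 46 h, and at 629 and 637 at 60 h. Both 60 h sums lay above all sums of 12 and 30 h, and the fitted difference was 0.58 at 60 h and -0.10 at 30 h. Within G1 cells Tuba1a was at 221.06 and 221.6 CPM at 12 h and at 498 and 362 at 60 h, and within S cells it was at 578 and 509 and then at 696 and 611. The fitted members had medians of 0.68, 0.79 and 0.43 at the 3 times, beside 0.01, -0.01 and 0.03 over all genes. The G1 share of dark zone cells moved with time as well. In experiment 3 it was 60.5, 40.3, 27.4 and 26.1% at 12, 30, 46 and 60 h, and in experiment 4 it was 41.8, 22.4, 24.1 and 32.1%. Its part in these differences was not tested.

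**Figure D4:**
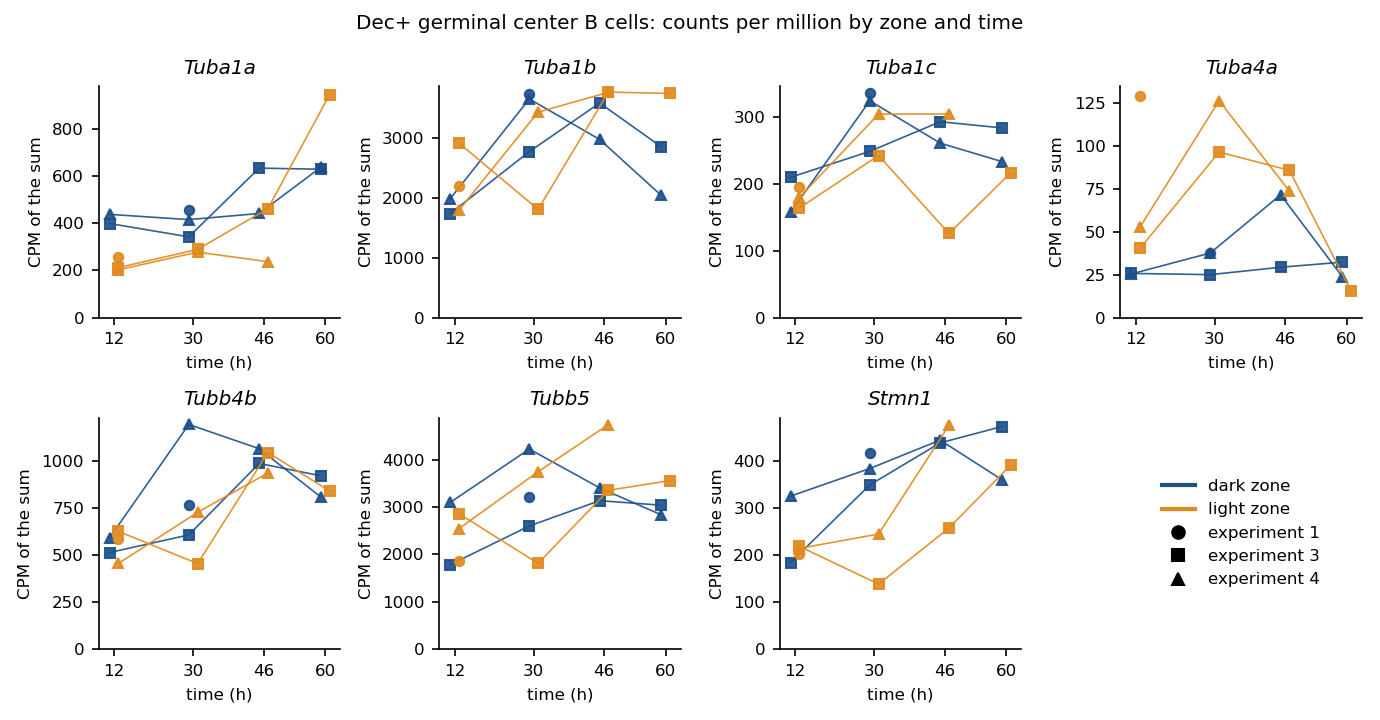
Level (CPM, linear axis from 0) of 7 members against time in hours, dark zone sums in blue and light zone sums in orange; each point is the sum over the Dec+ cells of 1 experiment, time and zone, and lines join sums of 1 experiment. The light zone point of Tuba1a at 60 h is the highest of its zone at 945 CPM, and the dark zone points of Tuba1b at 12 h are the lowest of theirs.

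In the light zone, the time course that chose the set, Tuba1a was at 256.6, 212.2 and 202.6 CPM at 12 h, at 289.1 and 277.5 at 30 h, at 462 and 236.8 at 46 h, and at 945 at 60 h. The highest value thus stands on 1 sum of 21 cells from experiment 3, of which 16 had reads of Tuba1a. Without the cell with the most reads the sum was 843 CPM. The 5 light zone cells of experiment 4 at 60 h, too few to enter the fit, gave 106.2 CPM. Within phases of experiment 3 the level went from 145.3 CPM at 12 h to 494 at 60 h in G1 cells (7 cells at 60 h), from 195.3 to 918 in S cells (8 cells) and from 442 to 1376 in G2M cells (6 cells). Stmn1 was at 202.3, 218.6 and 214.3 CPM at 12 h, from 138.3 to 476 at 30 and 46 h, and at 391 at 60 h. The fitted 60 h differences of the other members were 1.07 ± 0.39 for Stmn1, 0.74 ± 0.34 for Tuba1b, 0.68 ± 0.32 for Tubb5, 0.68 ± 0.34 for Tubb4b, 0.45 ± 0.44 for Tuba1c and -1.61 ± 0.75 for Tuba4a (log2, SE). Tuba4a therefore stood at 15.6 CPM in the sum in which Tuba1a was highest, against 40.2 to 129.2 CPM in the 12 h sums.

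Between zones the members were close. In 7 harvests with both zones, 0 of the 7 fitted members other than Tuba1a were called by edgeR (34 of 9302 genes, 0.366%), with Stmn1 and Tuba4a at an unadjusted p under 0.05, and none was called by DESeq2. Tuba1a was at 399, 438, 342, 415, 634, 441 and 629 CPM in dark zone cells and at 212.2, 202.6, 289.1, 277.5, 462, 236.8 and 945 in the light zone cells of the same harvests. It was higher in the dark zone in 6 of 7, by a fitted 0.53 ± 0.19 (log2, SE). This is a description with no p, since the light zone sums of Tuba1a are those by which the set was chosen. Stmn1 was at 184.3, 325.7, 349, 384, 439, 445 and 474 CPM in the dark zone and at 218.6, 214.3, 138.3, 244.98, 257.7, 476 and 391 in the light zone (0.47 ± 0.18, adjusted p = 0.403). Tuba4a leaned the other way, lower in the dark zone in 6 of 7 harvests by a fitted -0.87 ± 0.40 (adjusted p = 0.531). Tuba1b (-0.10 ± 0.14) and Tubb5 (-0.07 ± 0.13) lay near 0, Tubb4b was at 0.21 ± 0.12 and Tuba1c at 0.24 ± 0.18. The members' median of 0.18 sat beside 0.20 over all genes.

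By genotype, KO dark zone cells held less Tuba1b, Tubb4b and Stmn1 than WT cells. Each group of experiment 5 was taken as 1 sample with no test, because its 4 plates each held all groups and no animal is named. Ccnd3 itself was at 477 CPM in WT dark zone cells (292.5 to 651 over plates), 89.3 in KO (55.99 to 122.5) and 287.3 in TA (160 to 400). Of 6 members with at least 20 CPM, 3 were past 2-fold lower in KO, and 15.9% of 7054 genes were past 2-fold lower (27.5% in either direction). Tuba1b was at 529 CPM in KO cells (62 cells) and 1345 in WT cells (82 cells), a ratio of 0.394, with plates from 367 to 979 and from 810 to 1678. The plate ranges overlapped, but KO was lower on each of the 4 plates. Stmn1 was at 112.6 CPM in KO and 246.1 in WT cells (ratio 0.460), and its KO plates (43.5 to 192.1) lay below all WT plates (210 to 293.5). How many of all genes had plates that separate in this way was not counted, here or for the groups below. Tubb4b was at 188.9 against 406 CPM (ratio 0.466). Plate 4 carried part of this: without it the log2 ratio was -1.13 for Tuba1b, -0.84 for Stmn1 and -0.73 for Tubb4b, the last pair within 2-fold, and Tubb4b was also within 2-fold without plate 1 (-0.99) or plate 3 (-0.97) and Stmn1 without plate 2 (-0.996). Tubb5 was at 1342 against 2165 CPM, Tuba1a at 208.7 against 295.4 and Tuba1c at 65.3 against 111.9, all within 2-fold.

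TA dark zone cells held more Stmn1 and Tubb5. Stmn1 was at 550 CPM, past 2-fold above WT, with plates from 405 to 655 that all exceeded the WT plates, and it was the only member past 2-fold (8.12% of 6856 genes past 2-fold higher, 18.4% in either direction). Tubb5 was at 3674 CPM, 1.70 times WT, with plates from 3104 to 4455 against 1802 to 2743. Tuba1b was at 1834 CPM, Tubb4b at 434, Tuba1a at 286.6 and Tuba1c at 108.1, all within 2-fold of WT.

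The phases differed between genotypes in the same direction as these genes. G1 cells were 46.3% of WT, 77.4% of KO and 22.8% of TA dark zone cells. Within G1 cells Tubb5 was at 563 CPM in WT, 565 in KO and 627 in TA, and Stmn1 at 44.4, 38.8 and 75.6, so the KO values lay within 2-fold of WT. Tuba1b within G1 was at 230, 140.9 and 182.9 CPM and Tubb4b at 49.4, 44.3 and 168.3. Within G2M cells (24, 12 and 32 cells) Stmn1 was at 373, 417 and 772 CPM. Of its reads there, 1 cell held 43.7% in KO and 1 cell 24.99% in TA, and without the cell with the most reads in each group the values were 331.9, 261.97 and 609 CPM. Both TA values exceeded those of WT, but only the first pair was past 2-fold, and KO lay above WT with that cell and below it without. Tubb5 within G2M was at 3814, 4299 and 5801, and Tuba1b at 2330, 2049 and 2976. In S cells Stmn1 was at 611 CPM in TA against 422 in WT. Summed proliferation markers were 1324 CPM in KO, 2683 in WT and 4475 in TA dark zone cells, the median share of mitochondrial reads was 10.8, 6.93 and 5.94% in the same order, and T cell markers summed to 538, 170 and 212.7 CPM. Their part in these differences was not tested.

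**Figure D5:**
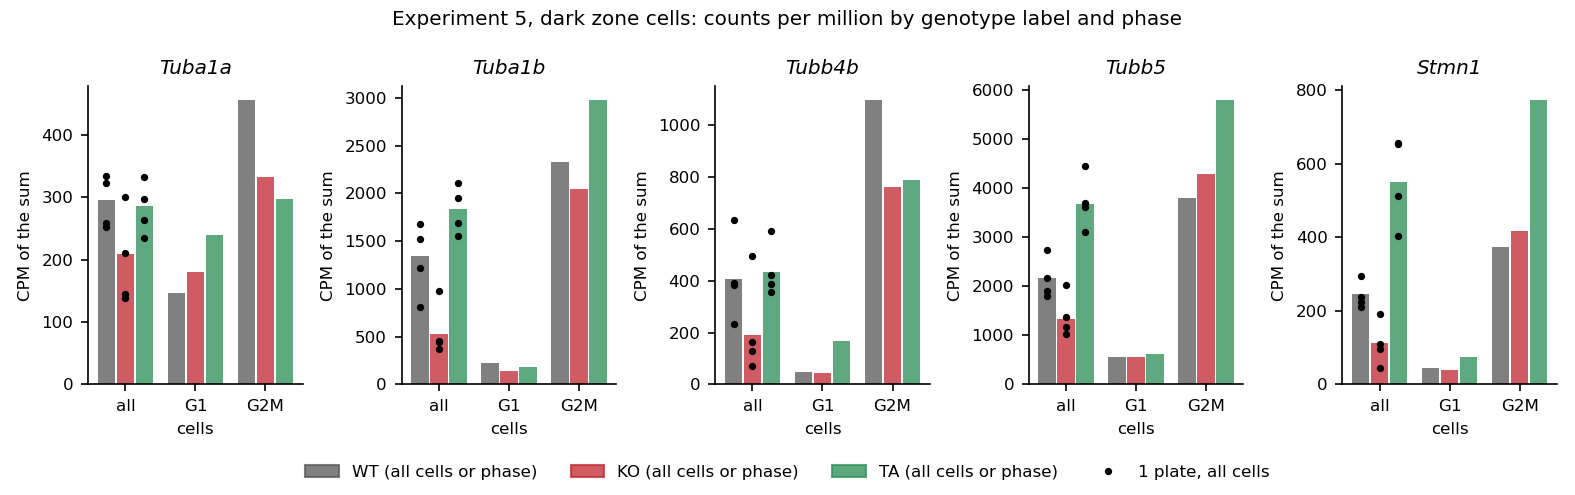
Level (CPM, linear axis from 0) of 5 members in WT, KO and TA dark zone cells of experiment 5; bars are sums over all cells of a group or over its G1 or G2M cells, and black points are plates. Stmn1 over all cells is lowest on the KO plates (43.5 to 192.1) and highest on the TA plates (405 to 655).

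In the light zone of experiment 5, Stmn1 was at 301.7 CPM in WT (41 cells), 65.4 in KO (61 cells) and 262.7 in TA cells (22 cells). The KO plates (38.5 to 95.5) lay below the WT plates (141.97 to 398). Tuba1b was at 731 CPM in KO and 1690 in WT, and within 2-fold without plate 2 (log2 ratio -0.89). G1 cells were 36.6% of WT, 73.8% of KO and 54.5% of TA light zone cells, and the median share of mitochondrial reads was 6.52, 10.4 and 5.43%. The part of either in these differences was not tested. Tuba1b and Stmn1 were past 2-fold lower in KO, beside 16.6% of 7325 genes (34.8% in either direction). Tubb2a and Tubb2b were at 51.2 and 74.005 CPM in KO light zone cells, each from 7 of 61 cells (11.5%). The cell with the most reads held 30.7% and 39.1% of them, and without it the levels were 36.1 and 46.1 CPM. Both were at 0 in the 41 WT cells, which allows up to 0.580 CPM or 7.32% of cells with reads. By reads the KO levels were at least 88.2-fold and 127.6-fold higher, while by cells the KO share lay less far above what the WT cells allow. Both genes reached the 20 CPM needed for the comparison only in the KO cells, so their direction was fixed by that filter. The 18.3% of genes past 2-fold higher is therefore no measure for them, and the folds are a description. Tubb2a reached 128.6 CPM in the dark zone of experiment 1 and 37.3 CPM in the light zone of experiment 3 at 30 h, the latter from 1 cell. In TA cells Tuba1c was the only member past 2-fold, at 26.2 against 103.5 CPM (23.5% of 7119 genes past 2-fold lower, 19.1% higher and 42.6% in either direction). Such bounds cover counting error only, and reads without molecular identifiers are not independent molecules.

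Between Dec+ and Dec- light zone cells at 12 h, no member was past 2-fold (0 of 7 with at least 20 CPM, beside 31.1% of 6440 genes, of which 17.7% higher and 13.3% lower). This comparison had 1 sample on each side, split over 3 plates. Tuba1a was at 256.6 CPM in Dec+ and 472 in Dec- cells, and its Dec+ plates (230.5 to 306.03) lay below all Dec- plates (330.7 to 719). These Dec+ cells are the 12 h light zone sum of experiment 1, among the sums that chose the set. The Tuba1a values of this comparison are therefore a description. How many of all genes had plates that separate in this way was not counted. Without the cell with the most reads the levels were 209.03 CPM in Dec+ and 382.6 in Dec-. Tuba1a had reads in 58.4% of Dec+ and 56.25% of Dec- cells. In G1 cells the Tuba1a values were 187.8 and 181.6 CPM, and in S cells 295.1 and 879. Tuba4a was higher in Dec+ cells at 129.2 against 64.6 CPM, with overlapping plates, and the pseudocount of 1 CPM alone kept it within 2-fold (log2 ratio 0.989). Tuba1b was at 2211 against 1597 CPM, Tubb5 at 1855 against 1549, Tubb4b at 584 against 447 and Stmn1 at 202.3 against 215.4. G1 cells were 42.2% of Dec+ and 58.8% of Dec- cells.

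The genes whose levels were most like Tuba1a over the 17 time-course sums of both zones (Pearson's r of log2(CPM + 1) after each experiment's mean was subtracted, 6185 genes) were Oard1 (r = 0.868), Cdk2 (0.836), H2afx (0.829), Coro1c (0.821) and Idh3g (0.818). Stmn1 had r = 0.643 and Tuba1b 0.287 with Tuba1a. For Stmn1 they were Birc5 (0.948), Cdca3 (0.909), Cdca8 (0.905), Hmgb2 (0.892) and Hmgn2 (0.872), with Tubb4b at 0.763 and Tubb5 at 0.750. These sums share experiments and differ in phase makeup, and no p is given. They include the light zone sums whose Tuba1a values chose the set. The genes most like Tuba1a are thus drawn partly from those values and are a description.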

How the data were processed

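Estimated counts per gene and cell (unit: expected counts) were deposited by the authors, and the submitters' processing notes list Seurat 3.1.4, RSEM 1.3.1, the aligner STAR (2.6) and the build mm10, with no step given for any of them. The authors also deposited a Phase and phase scores, a percent of mitochondrial reads, and index-sort intensity values (FUCCI, scatter) for each cell. Filters on cells and the annotation are not given in the sources used here. Cells had been index-sorted, per the labels. In experiment 1 the 12 h light zone cells and the 30 h dark zone cells were on separate plates, so plate cannot be told apart from time and zone there. Of the combined time-course table, 255 columns (experiment 2) were not used, and 10 cells with no group were left out. The PB wells of experiment 1 were not used either. No doublet caller was run, since each well received 1 sorted cell.

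Counts were summed over cells of 1 experiment, time and zone (and phase), for sums of at least 10 cells, and rounded. edgeR 4.0.16 (R 4.3.3) was run with TMM scaling, filterByExpr and its quasi-likelihood test with Benjamini-Hochberg adjustment over all genes fitted, at an adjusted p of 0.05. Zone and phase fits had the harvest (experiment and time) as block, and the time fit had the experiment. Sums of 1 experiment deviated together (correlation 0.0336 to 0.262, median 0.107, over 43 pairs). DESeq2 1.42.0 and limma 3.58.1 (each cell weighted equally) served as alternatives. The fit was tested on simulated counts. Genotypes and Dec status, with no replicate, were compared by CPM plus a pseudocount of 1, past 2-fold, among genes of at least 20 CPM in either group. Shares, correlations and exact tests used Python 3.11.15, numpy 2.4.6, pandas 2.3.3 and scipy 1.17.1, and figures matplotlib 3.10.9.

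All 10 members were named. Of each other list, genes past the threshold were named, at most 3 by size of change, or, with none past it, the 2 most abundant. The members and lists were chosen with earlier results of these data known. The share of Tuba1a among its neighbours was added after its values were seen. Levels of members are compared with each other per kb of the longest protein-coding transcript in GENCODE M21, and genes of the other lists were ranked by mean CPM.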

Additional observations from a re-analysis of the deposited data

Results flagged for a closer look

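A sum was singled out where its gap to the nearest other sum was too large a part of the range of its group by Dixon's test. Of 37 groups examined 6 had such a sum, where chance gives about 1 in 20 for groups not chosen by their values. The count includes the light zone sums of Tuba1a, which chose the set, so for them the flag is no test. In dark zone sums, Tuba4a stood at 71.5 CPM at 46 h in experiment 4, with the next at 37.6 CPM. Among G1 sums of the dark zone the same harvest had 131.9 CPM of Tuba4a, with the next at 32.5 CPM. Tubb2a stood at 128.6 CPM at 30 h in experiment 1, with the next at 21.3 CPM, and at 207.04 CPM among the G2M sums, with the next at 40.3 CPM. In that harvest 1 cell held 95.8% of the Tubb2a reads, and without it the sum was 6.75 CPM. Tuba1a stood at 945 CPM in the light zone at 60 h in experiment 3, with the next at 462 CPM, both among the sums that chose the set. Stmn1 was lowest among S sums of the dark zone at 12 h in experiment 3, at 265.7 CPM with the next at 399 CPM.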

How the results depend on the processing

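Of the directions of members in the tested comparisons, 13 turned under an alternative, all of them differences that were not called. Between zones these were Tuba1b (0.033) and Tubb5 (0.081) in harvests of 12 and 30 h only, Tubb5 in sums of at least 20 cells (0.013), and Tuba1c without an experiment (-0.12 to 0.48). Over time these were Tuba1a at 30 h with no replicate block (0.13), Tuba4a at 30 h without an experiment (-0.19 to 0.32), Tuba4a at 60 h with cells weighted equally (-0.046) or without an experiment (-0.084 to 0.33), and Tubb5 at 60 h without an experiment (-0.12 to 0.77). Between G2M and S it was Tuba4a with no replicate block (0.085), cells weighted equally (0.14), per experiment (0.021) or without an experiment (-0.49 to 0.014). The cause was not tested.

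The share of genes called moved with the method. Between zones it was 0.366%, but 5.07% by DESeq2, 0.677% with cells weighted equally, 0.0108% with no replicate block, 0.0317% in sums of at least 20 cells, 0% at 12 and 30 h only, and 0 to 0.0320% without an experiment. Over time DESeq2 called 0.780, 1.16 and 0.840%. For G2M against G1 (5.71%), DESeq2 called 12.6%, sums per experiment gave 1.21%, and leaving out an experiment gave 1.27 to 5.45%. For S against G1 (6.66%), DESeq2 called 15.6%, equal weights 10.8%, no replicate block 4.08% and sums per experiment 0.878%, and leaving out an experiment gave 1.24 to 6.69%. For G2M against S (0.337%) it was 1.42% by DESeq2, 0.630% with equal weights, 0.0977% with no replicate block, 0% per experiment, and 0.0105 to 0.366% without an experiment. Without the replicate block Tubb5 was not called between G2M and S (adjusted p = 0.0911), and no other member's call changed. Nor was Tubb5 called there with cells weighted equally (0.0543), and in sums per experiment neither Tubb5 (0.526) nor Tubb4b (0.715) was, nor in S against G1 Tuba1a (0.120), Tuba1c (0.0790) and Tubb4b (0.0790). Among genes of at least 50 CPM, a set of fewer genes, 21.6% (KO) and 11.7% (TA) were past 2-fold in the dark zone, 28.8 and 35.3% in the light zone, and 26.5% between Dec+ and Dec- cells, or 17.4% with cells weighted equally at 20 CPM. The few sums of each comparison and the division of shared reads among Tuba1a, Tuba1b and Tuba1c limit these results.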

Other observations

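Forward scatter, a light reading that follows cell size, was recorded in experiment 5. Across cells of 1 genotype in the dark zone, Spearman's rho with forward scatter had a median over the 3 genotypes of 0.46 for Tubb5, 0.45 for Tubb4b, 0.38 for Tuba1b, 0.33 for Stmn1, 0.30 for Tuba1c and 0.28 for Tuba1a (lowest 0.0649). These values have no p, since the cells share libraries and plates.

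Other genes of the microtubule pathway were also counted in KO against WT dark zone cells, with no test. Of 14 nucleation genes with at least 20 CPM, 5 were past 2-fold lower, beside 15.9% of all genes. So were 4 of 13 stabilisers, 1 of 8 chaperonin subunits and 2 of 6 depolymerising or severing genes, and none of the other lists. The list medians were -0.22, -0.58, -0.65 and -0.25 (log2), beside -0.16 over all genes and -0.93 over the members. Past 2-fold higher in KO were 1 of 6 cofactors, 1 of 8 modifiers and 1 of 6 depolymerising or severing genes, beside 11.6% of all genes. In TA cells 1 of 5 cofactors and 1 of 6 modifiers were past 2-fold lower, and none of the other lists, beside 10.2% of all genes. Past 2-fold higher in TA were 2 of 5 depolymerising or severing genes, 1 of 13 stabilisers and 1 of 2 other tubulins, beside 8.12% of all genes.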
